A study of Mus musculus with 8 samples.

Results

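The miR-106b~25 cluster is a set of 3 microRNA (miRNA) hairpins, Mir106b, Mir93 and Mir25, that lie within the mouse gene Mcm7. Its members were taken as every array spot, other than control spots, named for a mature form of miR-106b, miR-93 or miR-25. The rule found 5 mature forms of the 650 miRNAs on the array, which were miR-106b, miR-93 and miR-25 (mmu-miR-106b, mmu-miR-93 and mmu-miR-25 in the files), miR-106b* and miR-93*. They were read by 14 probes and 100 spots per array. The name with a star marks the passenger strand of a hairpin, the arm that is usually degraded. miR-25* was not analysed here.

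The array study compared 4 cultures that received a RapCA shuttle vector (called RapCA) with 4 cultures that received the same kind of vector empty (called vector). All 8 were microvascular smooth muscle cells of male C57BL6 mice that lack Rap1a (Rap1a -/-), a Ras-related GTPase that acts in cell adhesion. Every culture was grown with 10% serum, exposed to virus overnight without serum, and left for 48 h in 0.5% serum before RNA was taken. The labels call the 4 samples of a group biological replicates but do not say whether they came from separate mice, so p-values measure the spread between these samples. The labels do not describe the RapCA insert beyond its name, nor how much of it the cells made.

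Mcm7 is a subunit of the helicase that opens DNA for replication, and its transcript carries the 3 hairpins in an intron, so the miRNAs and the mRNA share a promoter that is active in dividing cells. miRNAs guide silencing complexes to mRNAs that pair with the seed, bases 2 to 8 of the mature strand. miR-106b and miR-93 share their seed with miR-17 and miR-20a of the miR-17~92 cluster, and in human cells miRNAs with this seed repress the cell cycle inhibitor p21. miR-25 shares its seed with miR-92a, and miR-25 is known in human cells as a repressor of the pro-apoptotic protein BIM.

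In the GRCm38.p6 assembly all 3 hairpins lie on the minus strand of chromosome 5 inside the span of Mcm7, chr5:138164583-138172111. Mir106b comes first in the direction of transcription at chr5:138165737-138165818, followed after 126 bases by Mir93 at chr5:138165523-138165610 and after a further 118 bases by Mir25 at chr5:138165321-138165404. The whole cluster spans 498 bases. The hairpins are shown here, as given by RefSeq and read 5′ to 3′, because they set out which arm each measured strand comes from. Capitals mark the guide strand that the array reads under the plain name.
Mir106b: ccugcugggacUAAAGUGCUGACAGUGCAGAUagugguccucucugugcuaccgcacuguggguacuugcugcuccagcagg
Mir93: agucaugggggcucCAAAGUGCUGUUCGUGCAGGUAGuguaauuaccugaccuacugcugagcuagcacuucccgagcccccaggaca
Mir25: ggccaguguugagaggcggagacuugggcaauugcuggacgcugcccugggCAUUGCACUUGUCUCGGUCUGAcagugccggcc

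The guide comes from the 5′ arm in Mir106b and Mir93 and from the 3′ arm in Mir25. The mature guides are set beside those relatives of the same seed that were tested in these cells, since the comparisons turn on them. Capitals mark the seed, AAAGUGC in the first group.
miR-106b: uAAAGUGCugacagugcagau
miR-93: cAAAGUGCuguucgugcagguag
miR-20a: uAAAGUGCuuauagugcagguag
miR-20b: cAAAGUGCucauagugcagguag

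In the second group the seed is AUUGCAC.
miR-25: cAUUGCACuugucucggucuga
miR-92a: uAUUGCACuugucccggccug

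Aligned from the first base without gaps, miR-106b and miR-93 differ at 5 of 21 positions. miR-106b and miR-20a differ at 3 of 21, miR-93 and miR-20a at 4 of 23, and miR-25 and miR-92a at 3 of 21. All listed guides matched a RefSeq entry. Binding of one miRNA to the probes of so close a relative was not tested.

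Signals are given as log2 of the processed spot intensity after scaling. Each array was divided by its 75th percentile, taken over those 189 probes that every array detected, and a floor was set at a log2 signal of 3.26. A probe counted as detected where a share above 0.5 of its spots, outliers aside, passed the scanner's test against background. Before scaling, the sum of all miRNA signals ran between 26374 and 56618 on the RapCA arrays, against 59506 and 81972 on the vector arrays. RapCA replicate 1 was the brightest RapCA array. In bulk RNA, fewer cells and less miRNA per cell cannot be told apart. The 4 spike-in RNAs did not show such a gap, with geometric means of 1152 to 1387 on RapCA arrays and 1180 to 1405 on vector arrays. Of 5 contractile smooth muscle markers 2 were detected: miR-143 on every array, though lower in RapCA cells by a log2 difference of -1.62 (limma adjusted p = 6.66e-06), and miR-145 on 0 of 4 RapCA and 4 of 4 vector arrays. miR-1, miR-133a and miR-133b were detected on 0 of 8. The summed contractile signal was 50.0 to 71.7 on RapCA arrays and 162 to 209 on vector arrays. All 4 fibroblast and mesenchymal markers were detected on every array. Of 6 skeletal and cardiac muscle markers only miR-206 was detected, on every array, and of 3 neural markers only miR-128, on 1 RapCA and 2 vector arrays. No marker of endothelial, blood, epithelial or liver cells was detected (0 of 2, 0 of 5, 0 of 6 and 0 of 1). The summed signal of the 4 mesenchymal markers lay between 2250 and 2381 on RapCA and between 4167 and 5109 on vector arrays. What part these marker differences have in the results was not tested. All 8 arrays lay on 1 slide, RapCA and vector arrays in separate position blocks, so position and group cannot be told apart.

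Of the 3 guide strands, miR-25 and miR-93 did not move together in RapCA cells, and the place of miR-106b was not resolved. After scaling, miR-25 was higher than in vector cells, and miR-93 was slightly lower though not below the median shift of the array. miR-106b varied so much between arrays that no difference was called. Groups were compared with limma over 168 miRNAs, adjusted by the Benjamini-Hochberg method (threshold 0.05), which called 76.2% of them in one direction or the other (26.2% higher and 50.0% lower). Of the 3 guides 1 was called higher, 1 lower and 1 was not called, which is no larger a share than that of the array. Groups did not overlap for 2 of the 3, beside 67.9% of all tested. Their median log2 difference was 0.24, beside -0.30 over all 168.

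miR-25 had log2 signals of 6.64, 6.87, 6.91 and 6.98 in RapCA replicates 1 to 4, against 6.35, 6.24, 6.30 and 6.39 in vector replicates 1 to 4. All RapCA values lay above all vector values, and the lowest RapCA array was replicate 1. The means were 6.85 ± 0.15 in RapCA and 6.32 ± 0.06 in vector cells (SD, n = 4 each). The log2 difference of 0.53 ± 0.10 (SE) passed the test (limma adjusted p = 0.000686), a 1.44-fold rise with a 95% interval from 0.31 to 0.75 on the log2 scale. The call rests on scaling the arrays: without any scaling the difference was -0.54 and with spike-in scaling -0.54, neither called (limma adjusted p = 0.0949 and 0.136). With the percentile taken over all probes it was 0.12, and with cyclic loess over all probes 0.18, neither called.

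miR-93 had log2 signals of 4.87, 5.003, 4.89 and 4.92 in RapCA replicates 1 to 4, against 5.22, 5.07, 5.10 and 5.10 in vector replicates 1 to 4. The groups did not overlap, but the highest RapCA and the lowest vector array lay close together. Mean values were 4.92 ± 0.06 in RapCA cells and 5.12 ± 0.07 in vector cells (SD, n = 4 each). The log2 difference was -0.20 ± 0.08 (SE), just past the threshold (limma adjusted p = 0.0416), with a 95% interval from -0.38 to -0.02. The difference lay 0.10 above the median of all tested miRNAs. On simulated arrays with many bright miRNAs changed, the same scaling moved unchanged miRNAs below 0. Its part in the miR-93 call was not tested. Leaving out any 1 of the 8 arrays ended the call, with values from -0.22 to -0.055, and without RapCA replicate 2 the difference was nearest to 0. Cyclic loess turned it above 0 (0.14 over all probes, 0.047 over filtered probes), as did normexp background correction (0.078, and 0.33 with an offset of 50), and none of these was called. Other settings took it further down, to -0.39 with a floor at 1, -0.41 with total gene signals and -0.83 without scaling, each called.

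miR-106b had log2 signals of 6.22, 5.71, 5.81 and 5.84 in RapCA replicates 1 to 4, against 5.39, 6.05, 5.90 and 5.30 in vector replicates 1 to 4. The groups overlapped, with vector replicates 2 and 3 near the RapCA values and vector replicates 1 and 4 below all of them. Means were 5.90 ± 0.22 in RapCA and 5.66 ± 0.37 in vector cells (SD, n = 4 each), and the log2 difference of 0.24 ± 0.19 (SE) was not called (limma adjusted p = 0.264). Its 95% interval, from -0.18 to 0.65, covers both no change and a rise as large as that of miR-25.

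**Figure D1:**
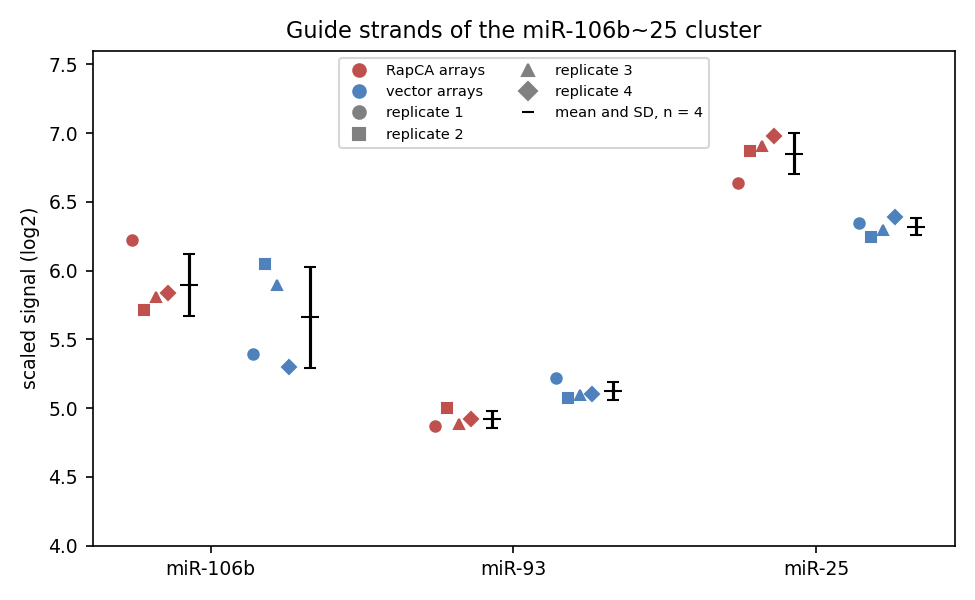
Scaled log2 signal of miR-106b, miR-93 and miR-25 on each array, RapCA left of vector for each miRNA. Symbols give the replicate, and the bars are the mean and SD of 4 arrays. The groups separate for miR-25 and miR-93 and overlap for miR-106b.

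The spread of miR-106b went with array brightness. The factor by which an array was divided in scaling was 1.38 for RapCA replicate 1, the RapCA array with the highest miR-106b, and 0.519 to 0.572 for the other RapCA arrays. Among vector arrays the factors were 1.56 and 1.72 for replicates 2 and 3, where miR-106b was high, and 1.43 and 1.15 for replicates 1 and 4, where it was low. This order was not particular to miR-106b. It was also seen in both groups for miR-18a, miR-19a and miR-19b of the paralogous clusters. For miR-20a and miR-20b it was seen on vector arrays only, and for miR-92a in neither group. With log2 of this factor as a covariate, a fit chosen once the values were known, miR-106b differed by 0.70 ± 0.21 (log2 ± SE) and was called (limma adjusted p = 0.0134). The same covariate left miR-25 called at 0.31 ± 0.11 (limma adjusted p = 0.0327) and miR-93 not called at -0.26 ± 0.12 (limma adjusted p = 0.0711). RapCA arrays other than replicate 1 had lower factors than every vector array, so this fit cannot fully separate brightness from group.

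Each guide was read by 2 probes with 10 spots each, of which 7 to 10 were kept. The probes of a guide pointed the same way in all 3 cases. For miR-25 the brighter probe rose by 0.63 ± 0.10 and the dimmer by 0.43 ± 0.10 (log2 ± SE, n = 4 per group), and both were called over all tested probes (limma adjusted p = 0.000262 and 0.00341). Calls were common among probes: of 292 tested, 78 were called higher and 149 lower. The brighter probe of miR-93 differed by -0.22 ± 0.10 and the dimmer by -0.18 ± 0.09, and neither was called on its own (limma adjusted p = 0.0503 and 0.0934). The dimmer miR-93 probe was detected on 1 of 4 RapCA arrays and 4 of 4 vector arrays, so it entered the test through the vector arrays, and its RapCA values lie near the floor. Both miR-106b probes were detected on every array, with differences of 0.28 ± 0.16 and 0.19 ± 0.21 (limma adjusted p = 0.133 and 0.416). The median SD of log2 signal over the spots of 1 probe on 1 array was between 0.107 and 0.231 for these 6 probes.

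Before scaling, the brighter miR-25 probe read 383, 166, 185 and 193 on RapCA arrays 1 to 4 and 288, 293, 356 and 259 on vector arrays 1 to 4. The brighter miR-93 probe read 110, 49.7, 50.6 and 53.1 on the RapCA arrays and 157, 158, 178 and 119 on the vector arrays. The brighter miR-106b probe read 180, 52.6, 58.3 and 59.0 on the RapCA arrays and 105.5, 177, 181 and 85.6 on the vector arrays. RapCA replicate 1 was above the other RapCA arrays for each of the 3 probes, and for miR-25 it was above every vector array as well. For miR-93 it was below all 4 vector arrays, as were the other RapCA arrays.

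**Figure D2:**
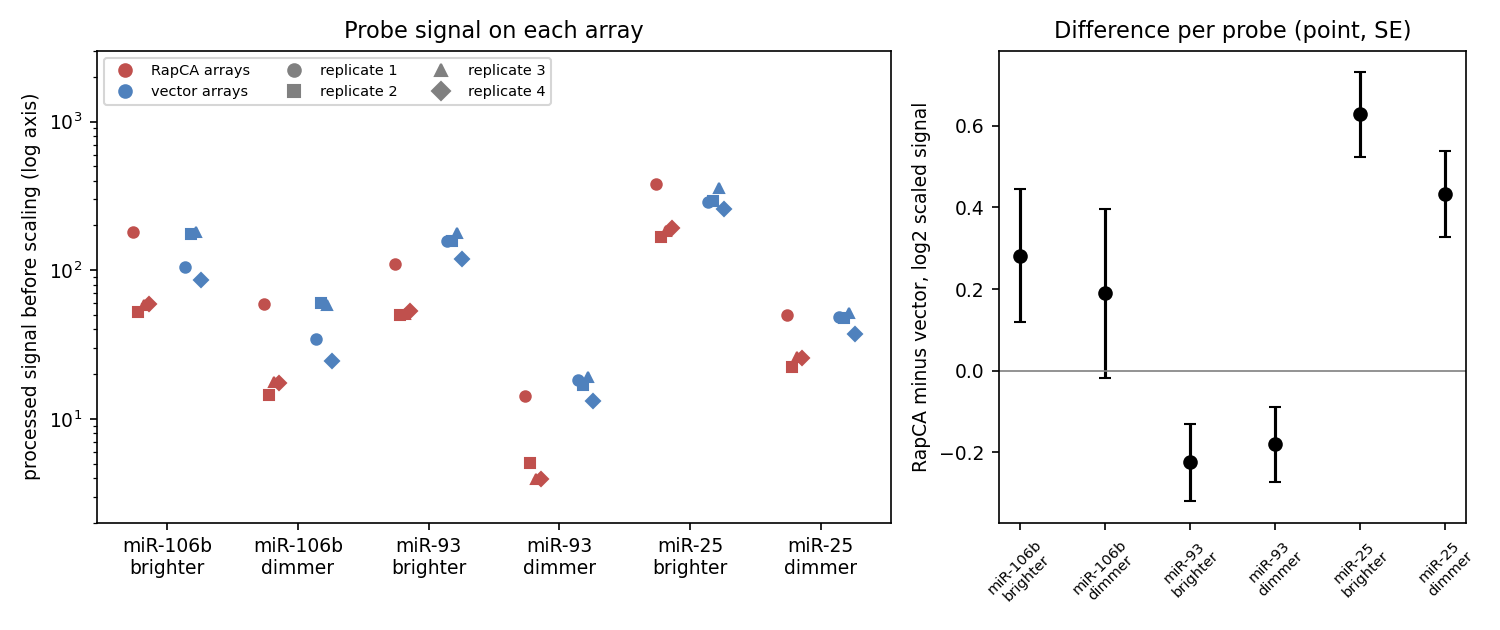
Left, processed signal before scaling of the brighter and dimmer probe of each guide on every array (log axis), RapCA left of vector. Right, the log2 difference RapCA minus vector of each probe after scaling, with its SE (n = 4 per group). Both miR-25 probes lie above 0 and both miR-93 probes below it.

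The passenger strands gave no signal. miR-106b* and miR-93* were each read by 4 probes with 5 spots. Over all 8 arrays, 0 of 157 kept spots of miR-106b* and 0 of 159 of miR-93* were well above background. Their probe means before scaling ran from -4.00 to 6.80 and from -4.93 to 2.11. No fold is given for either, and neither was among the tested miRNAs.

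A factor that scales a whole array cancels in the ratio of 2 miRNAs on it, except where a probe lies near the floor, which was set after scaling. The dimmer miR-93 probe lay near or at that floor (log2 signal 3.26 to 3.43 in RapCA and 3.48 to 3.66 in vector cells), so the size of ratios to or from miR-93 depends on scaling. Because each probe binds with its own strength, only the change of a ratio between groups can be read, not its size. Of 8 planned ratios, 6 could be tested, since miR-17 was not detected on any array. The log2 ratio of miR-25 to miR-93 was 1.77, 1.87, 2.02 and 2.06 in RapCA replicates 1 to 4, against 1.13, 1.17, 1.20 and 1.29 in vector replicates 1 to 4. The groups lay well apart. The difference of 0.73, or 1.66-fold, had a two-sided exact permutation p = 0.0286, the smallest possible with 70 assignments (adjusted p = 0.0429 over the 6 ratios). This adjusted p rests in part on the ratios to miR-20a and miR-92a, which reached the same p and whose direction was already known. Adjusted over the ratios within the cluster alone, it would not pass the threshold of 0.05. miR-25 thus moved upward relative to miR-93, its neighbour in the same transcript. The difference was 0.30 in unscaled signals and 0.32 after scaling to the spike-ins, with the same adjusted p in both. In a refit with RapCA replicate 1, the array nearest in brightness to the vector arrays, as the only RapCA array, it was 0.59, with no test. Cyclic loess over all probes, which does not keep ratios within an array, reduced the difference to 0.043 (exact permutation adjusted p = 0.971), and over filtered probes it was 0.76 (adjusted p = 0.0429).

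The ratios that involve miR-106b within the cluster did not pass. The log2 ratio of miR-25 to miR-106b averaged 0.95 ± 0.36 in RapCA and 0.66 ± 0.43 in vector cells (SD, n = 4 each; exact permutation p = 0.171, adjusted 0.200). That of miR-106b to miR-93 averaged 0.98 ± 0.27 in RapCA and 0.54 ± 0.41 in vector cells (SD, n = 4 each; exact permutation p = 0.200, adjusted 0.200). In both the RapCA and vector ranges overlapped. Whether miR-106b followed miR-25 or miR-93 could therefore not be resolved with these arrays.

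The paralogous clusters offer a comparison with related miRNAs, only some of which have the same seeds. Of the tested ones, miR-20a, miR-20b and miR-92a share a seed with a guide, while miR-18a, miR-19a and miR-19b have other seeds. The list held 13 miRNAs of the paralogous clusters and the seed families. Of these, 12 were on the array, miR-106a was not analysed here, and 6 passed the detection filter. All 6 were called higher in RapCA cells, beside 26.2% of all tested miRNAs, with log2 differences from 0.92 (miR-18a) to 1.96 (miR-19a) and a median of 1.47. The other 6, miR-17, miR-18b, miR-363, miR-92b, miR-32 and miR-367, had no probe detected on any array. The guides of the miR-106b~25 cluster thus spanned -0.20 to 0.53, and the tested relatives lay above each of them. The rise of the relatives had been seen in earlier results of these data, and 5 of them (miR-19a, miR-92a, miR-20a, miR-20b and miR-19b) are in the authors' deposited table of 54 selected miRNAs, which holds 0 of the cluster's own forms. These calls rest on scaling. In unscaled signals only miR-92a was called (0.71, limma adjusted p = 0.0161), while miR-19a had 0.88, miR-20a 0.42, miR-20b 0.39, miR-19b 0.18 and miR-18a -0.15. Spike-in scaling likewise left only miR-92a called, and miR-18a again at -0.15. miR-18a also lost its call with the percentile over all probes (0.51). With cyclic loess over all probes all 6 stayed above 0 but only miR-20a was called (1.27, limma adjusted p = 0.0265).

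**Figure D3:**
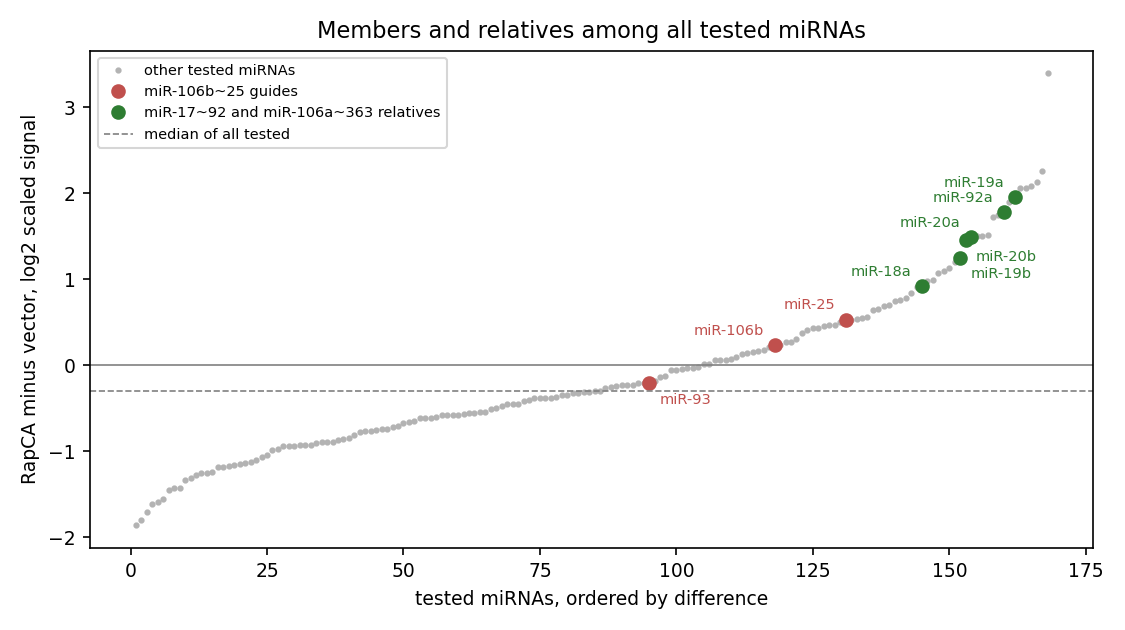
Log2 difference RapCA minus vector of the 168 tested miRNAs in rising order, with the 3 guides of the cluster and the 6 tested relatives marked. The dashed line is the median of all, -0.30. miR-93 lies at -0.20 near that median, miR-106b and miR-25 above it, and the relatives higher still.

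Set against a relative of the same seed on the same array, each guide of the cluster was relatively lower in RapCA cells. A lower ratio does not mean that the guide itself fell. Since the rise of the relatives was already known, these ratios and their tests largely restate it and are not separate support. miR-20a, the tested miR-17~92 member with the seed of miR-93 and miR-106b, had log2 signals of 7.92 to 8.05 in RapCA and 6.24 to 6.76 in vector cells. The log2 ratio of miR-93 to miR-20a was -3.11, -2.92, -3.09 and -3.13 in RapCA replicates 1 to 4, against -1.02, -1.69, -1.53 and -1.26 in vector replicates 1 to 4. That of miR-106b to miR-20a was -1.76, -2.21, -2.17 and -2.21 in RapCA, against -0.84, -0.71, -0.73 and -1.06 in vector cells. Every RapCA ratio lay below every vector ratio, by a mean of 1.69 for miR-93 and 1.25 for miR-106b on the log2 scale; as fold, RapCA ratios were 0.310 and 0.420 of the vector ratios.

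The miR-25 seed gave a like result. miR-92a had log2 signals of 7.98 to 8.61 in RapCA and 6.52 to 6.78 in vector cells. The log2 ratio of miR-25 to miR-92a was -1.34, -1.700, -1.61 and -1.63 in RapCA replicates 1 to 4, against -0.43, -0.37, -0.22 and -0.27 in vector replicates 1 to 4. The difference of -1.25 corresponds to a ratio in RapCA cells that was 0.421 of that in vector cells. Each of the 3 ratios to a relative had an exact permutation p = 0.0286, the smallest possible (adjusted p = 0.0429). These 3 and miR-25 to miR-93 kept their direction in 25 of 25 alternatives and their call in 22 of them. Part of this count is fixed in advance, since several alternatives cannot move a ratio within an array. The calls of miR-25 to miR-93 also rest on an adjustment shared with the ratios to relatives. That of miR-25 to miR-92a, for one, was -1.25 under the all-probe percentile, unscaled and scaled to spike-ins alike. The size of miR-93 to miR-20a was -1.25 in unscaled signals and -1.28 after scaling to the spike-ins. The call was lost with cyclic loess over all probes, at -1.13 for miR-93 to miR-20a, -1.17 for miR-106b to miR-20a and -1.20 for miR-25 to miR-92a (exact permutation adjusted p = 0.0857, 0.0857 and 0.571), and 2 alternatives gave no test. Under normexp correction with an offset of 50, the values shrank to -0.85, -0.69, -0.81 and 0.25, in the order miR-93 to miR-20a, miR-106b to miR-20a, miR-25 to miR-92a and miR-25 to miR-93.

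**Figure D4:**
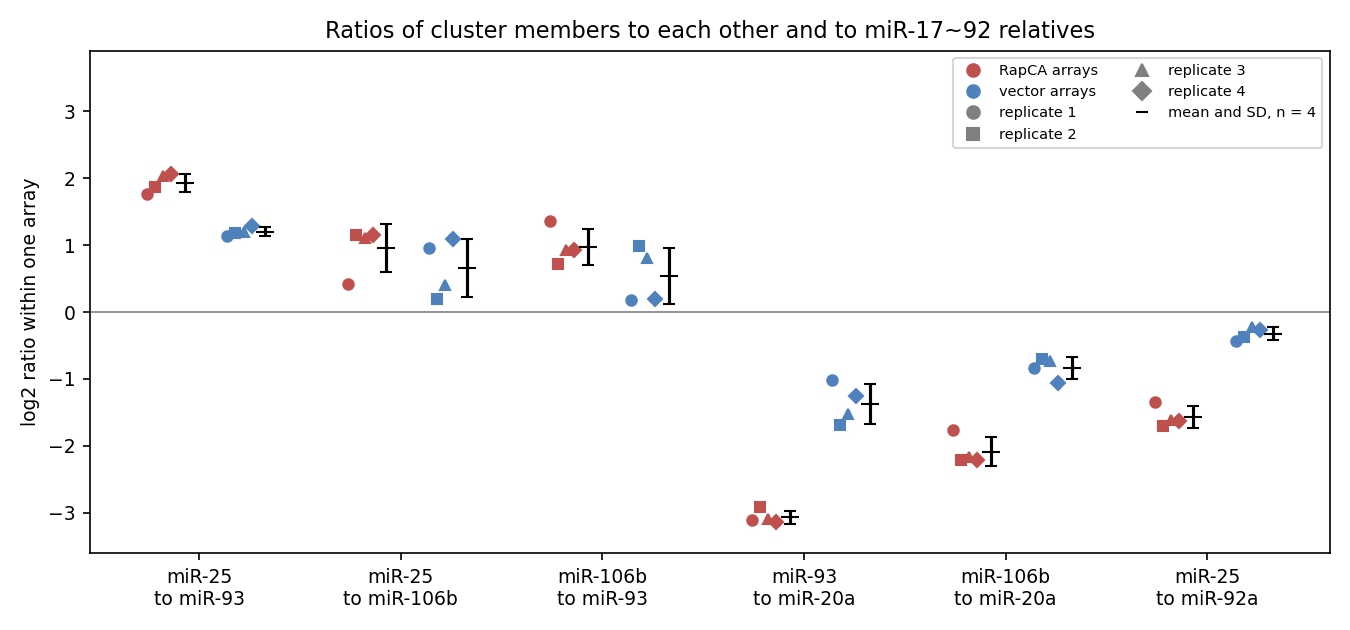
Log2 ratio of miRNAs within each array for the 6 tested pairs, RapCA left of vector, with replicate symbols and the mean and SD of 4 arrays. RapCA ratios lie above the vector ratios for miR-25 to miR-93 and below them for the 3 ratios to miR-20a or miR-92a. They overlap for the pairs of miR-106b with miR-25 and with miR-93.

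Where a guide lies relative to the array's median miRNA depended less on scaling than its plain difference did. This follows largely from the arithmetic, since subtracting the median of the same fit removes a shift common to all miRNAs. miR-25 lay 0.83 above the median log2 difference of all tested miRNAs, miR-106b 0.54 above and miR-93 0.10 above. Over 26 alternatives miR-25 lay between 0.21 and 0.95 above the median and miR-106b between 0.12 and 0.99 above, while miR-93 ranged from -0.20 to 0.38 around it. In these terms 130 of the tested miRNAs had a lower difference than miR-25, 117 a lower one than miR-106b and 94 a lower one than miR-93.

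**Figure D5:**
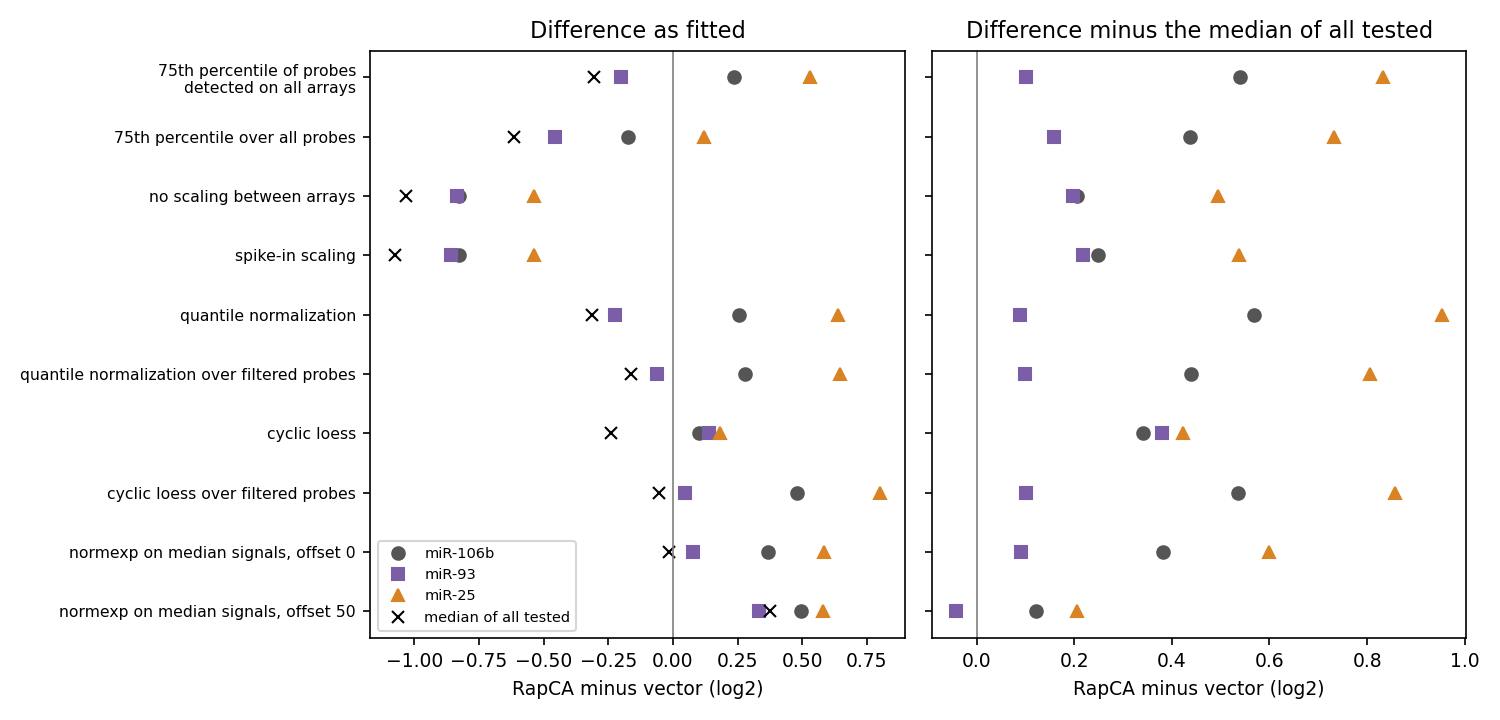
Log2 difference RapCA minus vector of the 3 guides under 10 ways of scaling or background correction, as fitted (left, with the median of all tested miRNAs as a cross) and after subtracting that median (right). miR-25 turns from 0.53 to -0.54 without scaling but stays above the median in each setting shown.

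Profiles over the 8 arrays were compared by the root mean square difference of log2 signals, each miRNA centred on its own mean. Among the 165 other tested miRNAs, those nearest to miR-93 were miR-151-5p (0.066), miR-532-5p (0.072) and miR-425 (0.101). Nearest to miR-25 were miR-129-3p (0.116), miR-690 (0.131) and miR-674* (0.132). Nearest to miR-106b were miR-21 (0.170), miR-29c (0.171) and miR-872 (0.179). None of the tested relatives of the miR-17~92 family was among the 3 nearest of any guide. Group differences enter this distance, however, and those of the relatives were larger than those of the guides. The distance therefore does not show whether guides and relatives varied together between cultures of a group.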

How the data were processed

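MicroRNA levels were read on 8 one-colour Agilent arrays of cultured mouse cells (4 RapCA, 4 vector). The deposited intensity of each spot came, per the file headers, from Agilent Feature Extraction 10.7.3.1 (10.7 in the submitters' processing notes), subtracting local background and not scaling between arrays. The deposited value table equals the processed intensity of each array. Other deposited columns are control types and spot flags. The deposited table of 54 selected miRNAs does not state its normalization, and only its names were used.

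Control spots and spots with outlier flags were left out (2.98% to 4.66% per array), and no spot was saturated (0). Signals were scaled, floored at 9.61 before log2, averaged per probe, and averaged per miRNA over those probes that every array of 1 or both groups detected. limma 3.58.1 in R 4.3.3 (lmFit, eBayes, no covariate) was fitted over the 168 miRNAs and, for single probes, over all probes passing the same filter. Ratios within arrays were compared by two-sided exact permutation tests. The number of arrays limits the precision. The functions were tested on simulated arrays, where all changed miRNAs were recovered. With more bright miRNAs changed, the percentile scaling moved unchanged ones below 0 and most of those were called as well.

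Members and lists were chosen with earlier results of these data known. Named miRNAs were all forms of the 3 stems, the 13 listed relatives and the 3 nearest profiles of each guide. The alternatives were other scalings, background corrections, filters, floors, summaries, a replicate block and leaving out each array. Quantile normalization and cyclic loess were run over all probes first. Versions over filtered probes were added after those results were known. Normexp used median signals, because mean spot signals were not used here. Sequences and positions are from RefSeq, GRCm38.p6.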

Additional observations from a re-analysis of the deposited data

Results flagged for a closer look

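Among 42 sets of 4 arrays examined (guides, relatives, probes and ratios in each group), 3 held an array far from the other 3. Chance gives this for about 5% of sets, so the count is near that of chance. The sets are not independent, as both ratios below use the same miR-106b signal. In all 3 sets the array was RapCA replicate 1, the brightest RapCA array. Its log2 signal of miR-92a was 7.98, against 8.52 to 8.61 on the other RapCA arrays. Its log2 ratio of miR-25 to miR-106b was 0.42, against 1.10 to 1.16 on the others. Its log2 ratio of miR-106b to miR-20a was -1.76, against -2.21 to -2.17 on the others.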

How the results depend on the processing

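Of 26 alternatives, 6 were chosen once results were known: normexp on median signals with an offset of 50 or 0, RapCA replicate 1 as the only RapCA array, a brightness covariate, and quantile normalization and cyclic loess over filtered probes. The final 2 were added because cyclic loess over all probes, as first run, had ended most calls. Normexp on mean signals was not run, a slide block could not be fitted with 1 slide, and ratios to miR-17 had no value. Ratios were also computed unscaled, scaled to spike-ins and under the all-probe percentile, a choice made once results were known. That of miR-25 to miR-93 was then 0.30, 0.32 and 0.57, and that of miR-106b to miR-93 0.0084, 0.031 and 0.28. Cyclic loess over all probes left 3 miRNAs called higher and 2 lower, beside 44 and 84. It ended the calls of miR-25 (0.18) and of the ratios of miR-25 to miR-93 (0.043), miR-93 to miR-20a (-1.13), miR-106b to miR-20a (-1.17) and miR-25 to miR-92a (-1.20), and turned miR-93 to 0.14 and the ratio of miR-106b to miR-93 to -0.039. miR-25 was below 0 if unscaled (-0.54) or scaled to spike-ins (-0.54) and not called at 0.12 under the all-probe percentile; without 1 array it ranged from 0.50 to 0.73. miR-106b had -0.17 under the all-probe percentile, -0.83 unscaled and -0.83 scaled to spike-ins, and was called higher with cyclic loess over filtered probes (0.48), normexp at offset 50 (0.497) or 0 (0.37) and the brightness covariate (0.70). miR-93 lost its call with quantile normalization over filtered probes (-0.062), the brightest probe (-0.22), outlier spots kept (-0.15), the replicate block (-0.20), RapCA replicate 1 alone (-0.13), the brightness covariate (-0.26) and without any 1 array (-0.22 to -0.055). It was above 0 with cyclic loess over filtered probes (0.047) and normexp at offset 50 (0.33) or 0 (0.078). miR-18a turned to -0.15 unscaled and -0.15 scaled to spike-ins. The cause of these changes was not tested. miRNAs called higher numbered 28 under the all-probe percentile, 10 unscaled, 9 scaled to spike-ins and 81 with normexp at offset 50; those called lower numbered 20 and 54 with normexp at offset 50 and 0. With RapCA replicate 1 alone, which allows no permutation test, the ratios of miR-106b to miR-20a, miR-25 to miR-92a and miR-25 to miR-93 moved to -0.93, -1.01 and 0.59, and that of miR-25 to miR-106b turned to -0.24. Replicate numbers gave no clear sign of pairing: deviations of same-numbered arrays correlated at -0.65, -0.60, -0.55 and 0.63 for replicates 1 to 4. RapCA replicate 4 correlated best with its own number and the others did not, so pairing is not excluded. The replicate block left miR-25 called at 0.53 (limma adjusted p = 0.00566) and miR-93 not called at -0.20 (limma adjusted p = 0.140). Signals at the floor limit the dimmer miR-93 probe.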

Other observations

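The 2 strands of the Mir17 hairpin, named after their values were seen, read against their names. The probes of miR-17, the guide strand, were detected on 0 of 8 arrays, with means before scaling from -3.25 to 3.03. The passenger strand miR-17* was detected on 7 of 8 arrays, 3 of 4 RapCA and 4 of 4 vector, so it entered the test through the vector arrays. After the main scaling it was higher in RapCA cells by 0.76 ± 0.11 (log2 ± SE, n = 4 per group; limma adjusted p = 0.000104). The means were 4.68 ± 0.15 in RapCA and 3.92 ± 0.12 in vector cells (SD, n = 4 each), the latter not far above the floor of 3.26. Its difference is given under the main scaling only. In the miR-106b~25 hairpins Mir106b and Mir93, by contrast, only guide strands were detected. The 2 miR-17 probes therefore carry no information on the seed that miR-106b and miR-93 share, and the comparison with that seed rests on miR-20a and miR-20b, of which only miR-20a was used in the ratios.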
